A study of Mus musculus with 6 samples.

Results

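The mitochondrial ribosomal protein genes are the nuclear genes whose products, made in the cytosol and imported, assemble with mitochondrial ribosomal RNA into the ribosome of the mitochondrion. Members were chosen by name, as every entry of the deposited gene table whose symbol is Mrpl or Mrps followed by a number and at most 1 letter. This gave 78 genes of 54884 entries, 49 named for the large subunit (Mrpl) and 29 for the small subunit (Mrps). A further 5 entries with such names are pseudogenes and were left out as members. The rule used no measured value.

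The libraries came from cultured neural stem cells, the dividing precursors of neurons and glia, of C57BL/6 mice. The cells had been taken from the hippocampus at embryonic day 14 and kept in culture for 3 to 8 passages. Every culture had received a lentivirus, which carried a control siRNA (circCon siRNA) in 3 libraries and an siRNA against circHIPK2, a circular RNA made from the Hipk2 gene, in the other 3. The labels do not say whether the libraries of a group were separate infections or cultures, so any p-value covers no more than the variation among the libraries, which may be technical. circHIPK2 itself was not analysed here.

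Mitochondrial ribosomes translate the few messenger RNAs that the mitochondrial genome encodes, all of them for core subunits of the respiratory chain and the ATP synthase. The small subunit holds the messenger RNA and decodes it, and the large subunit joins the amino acids and passes the new chain through an exit tunnel at the inner membrane. Many of the proteins have counterparts in bacteria, from which the organelle descends, and the rest exist only in mitochondrial ribosomes. In neural stem cells, respiration is known to increase as cells leave the stem cell state and become neurons.

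Levels are FPKM, the number of fragments for each kilobase of transcript and each 1000000 mapped, so genes of different length can be compared. Log2 fold changes are circHIPK2 siRNA minus control on the scale of log2(FPKM + 1). They were fitted with limma, a moderated linear model, over the 13702 entries whose mean reached 1 FPKM, and a gene was called at a Benjamini-Hochberg adjusted p below 0.05. All 78 members passed that filter on their mean over the 6 libraries. None was called in either direction, against 0.255% of all entries tested (0.117% higher and 0.139% lower with the siRNA). The lowest limma adjusted p of a member was 0.173, for Mrpl20, and with library weights in the fit that gene alone among the members passed, at 0.0469. Without adjustment, 1 member was higher at a limma p below 0.05 and 11 were lower, against 1.83% and 15.5% of all entries. The count of 11 ran from 1 (against 2.86% of all entries), with 9 entries at ribosomal RNA loci removed, to 32 (against 25.4%) with library weights.

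The DNA just upstream of the members with the most extreme fold changes is shown first. These genes were picked by those values, and none of them was called. Mrpl48 and Mrpl22 had the lowest log2 fold changes, and Mrps31 and Mrps6 the highest. Each line gives the 250 bases before the start of the gene, 5' to 3' along its own strand, from RefSeq on build GRCm38.p6, which is later than the build of the FPKM table. The windows are chr7:100608302-100608551 on the minus strand for Mrpl48 (the first of 4 windows listed), and, on the plus strand, chr11:58171414-58171663 for Mrpl22, chr8:22411090-22411339 for Mrps31 and chr16:92058086-92058335 for Mrps6. Capitals mark matches on either strand to 4 short motifs, the NRF1 core (TGCGCA), the ETS core (CCGGAAG), the YY1 core (AAGATGG) and the GC box (GGGCGG).
Mrpl48: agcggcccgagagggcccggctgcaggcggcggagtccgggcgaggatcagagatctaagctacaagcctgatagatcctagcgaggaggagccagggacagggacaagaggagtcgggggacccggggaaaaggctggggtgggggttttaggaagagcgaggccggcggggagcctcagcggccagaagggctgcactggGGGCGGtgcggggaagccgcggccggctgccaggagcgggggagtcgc
Mrpl22: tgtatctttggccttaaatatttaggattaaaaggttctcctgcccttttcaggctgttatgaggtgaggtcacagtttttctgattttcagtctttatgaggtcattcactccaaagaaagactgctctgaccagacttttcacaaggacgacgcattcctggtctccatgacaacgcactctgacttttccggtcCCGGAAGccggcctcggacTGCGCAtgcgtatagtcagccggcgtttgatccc
Mrps31: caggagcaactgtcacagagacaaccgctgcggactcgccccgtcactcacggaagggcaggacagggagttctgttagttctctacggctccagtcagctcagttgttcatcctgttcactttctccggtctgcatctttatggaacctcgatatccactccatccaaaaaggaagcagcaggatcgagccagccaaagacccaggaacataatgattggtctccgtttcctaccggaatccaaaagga
Mrps6: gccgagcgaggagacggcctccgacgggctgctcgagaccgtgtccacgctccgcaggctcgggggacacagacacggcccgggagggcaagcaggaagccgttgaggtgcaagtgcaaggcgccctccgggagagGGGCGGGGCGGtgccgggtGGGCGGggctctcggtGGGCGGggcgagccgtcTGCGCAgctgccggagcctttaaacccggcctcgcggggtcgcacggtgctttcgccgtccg
The Mrps6 window held an NRF1 core and 4 GC boxes, 2 of them overlapping in the run of 11 capitals. The Mrpl22 window held an ETS core and an NRF1 core, the Mrpl48 window a single GC box, and the Mrps31 window none of the 4.

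NRF1, the ETS factor GABP and YY1 are known as activators of nuclear genes for mitochondrial proteins. RefSeq windows from 250 bases before to 50 bases after the start were matched for 69 of the 78 members (88.5%). The NRF1 core was in 21 of them (30.4%), against 15.7% of the 9107 windows of tested entries and 8.06% of all 27025 windows. The ETS core was in 25 (36.2%, against 19.7% and 9.12%), and the YY1 core in 13 (18.8%, against 7.71% and 6.48%). At least 1 of these 3 motifs was in 43 members' windows (62.3%), against 36.9% of tested entries and 21.0% of all. The GC box was in 34 members' windows (49.3%), fewer than the 67.3% of tested entries and more than the 35.9% of all windows. It was in 39.5% of large subunit and 65.4% of small subunit windows. These are matches of letters, with no measurement of binding. The members with an NRF1 core had a median log2 fold change of -0.18 and those without one -0.16; with and without an ETS core the medians were -0.17 and -0.15, and with and without a YY1 core -0.19 and -0.15.

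The members were expressed at moderate to high levels in these cells. Of the 78, 64 had a mean above 8.67 FPKM, the median of all entries tested, and 38 were above the upper quartile of 19.7 FPKM. Means ran from 3.05 FPKM for Mrpl33 to 75.2 FPKM for Mrps6, a 24.7-fold range among proteins that are mostly present as 1 copy in each ribosome. Large subunit genes had a median level of 24.1 FPKM and small subunit genes one of 15.1 FPKM. Only 3 members were under 5 FPKM (Mrpl33, Mrpl1 and Mrps30), 37 lay from 5 to 20 FPKM, 30 from 20 to 40 FPKM and 8 at 40 FPKM or more.

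**Figure D1:**
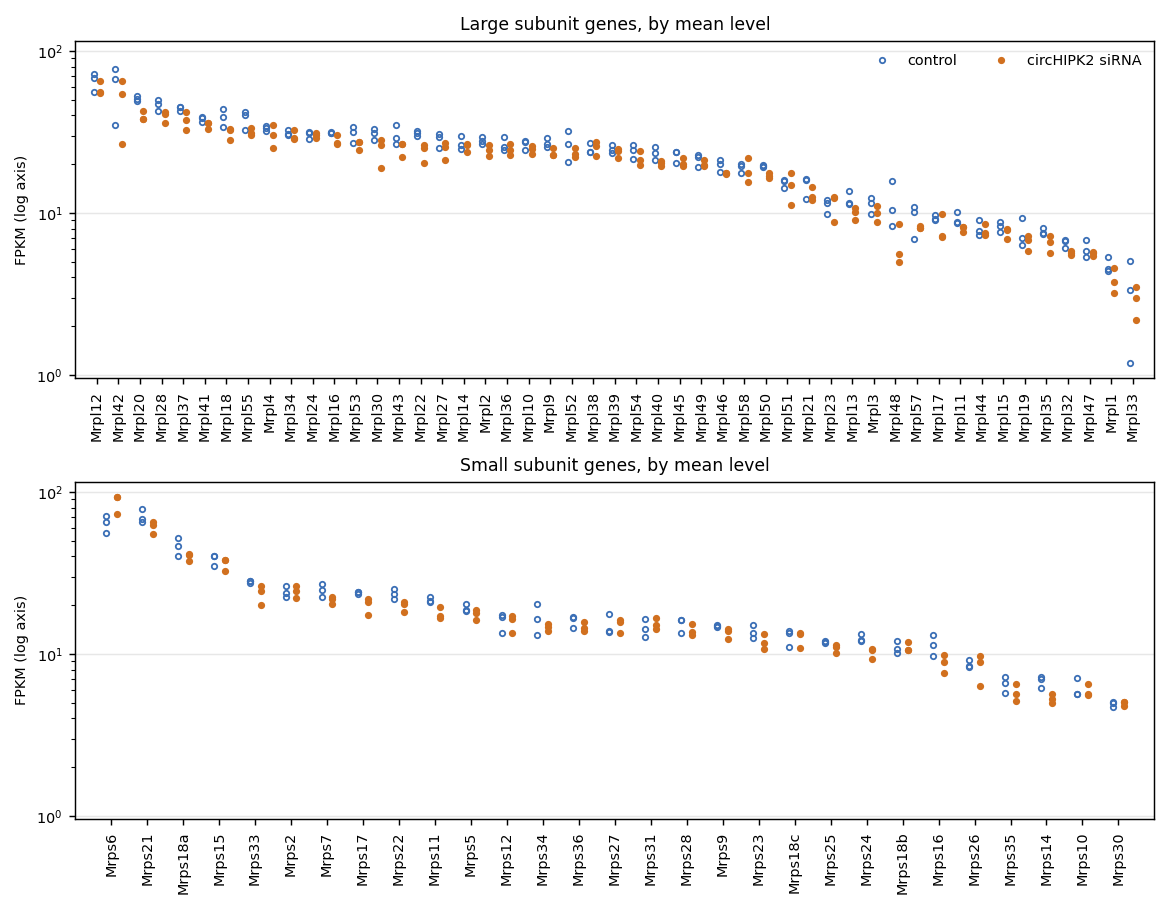
Level of each of the 78 members in each library, in FPKM on a log axis, with large subunit genes in the upper panel and small subunit genes in the lower, ordered by mean. Each circle is 1 library (open blue, control; filled orange, circHIPK2 siRNA). The groups lie close to each other for most genes; Mrps6 has all its siRNA libraries above its controls, and Mrpl42, Mrpl48 and Mrpl33 spread widely within a group.

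Replicate libraries of a group were close for most members. The median coefficient of variation of a member was 8.63% over the control libraries and 8.34% over the siRNA libraries. It was above 25% in either group for 3 members, Mrpl33 (60.4% in control), Mrpl42 (40.8% with the siRNA) and Mrpl48 (33.2% in control). For these 3 the spread between replicates covers a large part of any difference between groups.

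Read as a group, the members were slightly lower with circHIPK2 siRNA, and so was the table as a whole. The median log2 fold change was -0.15 for the 78 members (lowest -0.74, highest 0.43) and -0.12 for all entries tested. Below 0 lay 70 of 78 members, and below the median of all entries 48 of 78 (61.5%). The count of 48 was 37 (47.4%) without control library 1, 56 (71.8%) without control library 2 and 68 (87.2%) with no filter on low values. In that last setting the median of all entries was itself -0.02. In a bulk library, fewer cells of a type and less RNA per cell cannot be told apart.

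The median was -0.16 for the 49 large subunit genes and -0.12 for the 29 small subunit genes, a difference of -0.04. Among large subunit genes 33 of 49 (67.3%) lay below the median of all entries, and among small subunit genes 15 of 29 (51.7%). The difference of medians ran from -0.07 (without control library 2) to -0.02 (without control library 3), and it was not tested, because members are not replicates. Genes classed as bacterial homologues by the uniform naming of ribosomal proteins (46) had a median of -0.16. Those classed as mitochondrion-specific (31), which include the paralogues Mrps18a and Mrps18b, had one of -0.14.

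**Figure D2:**
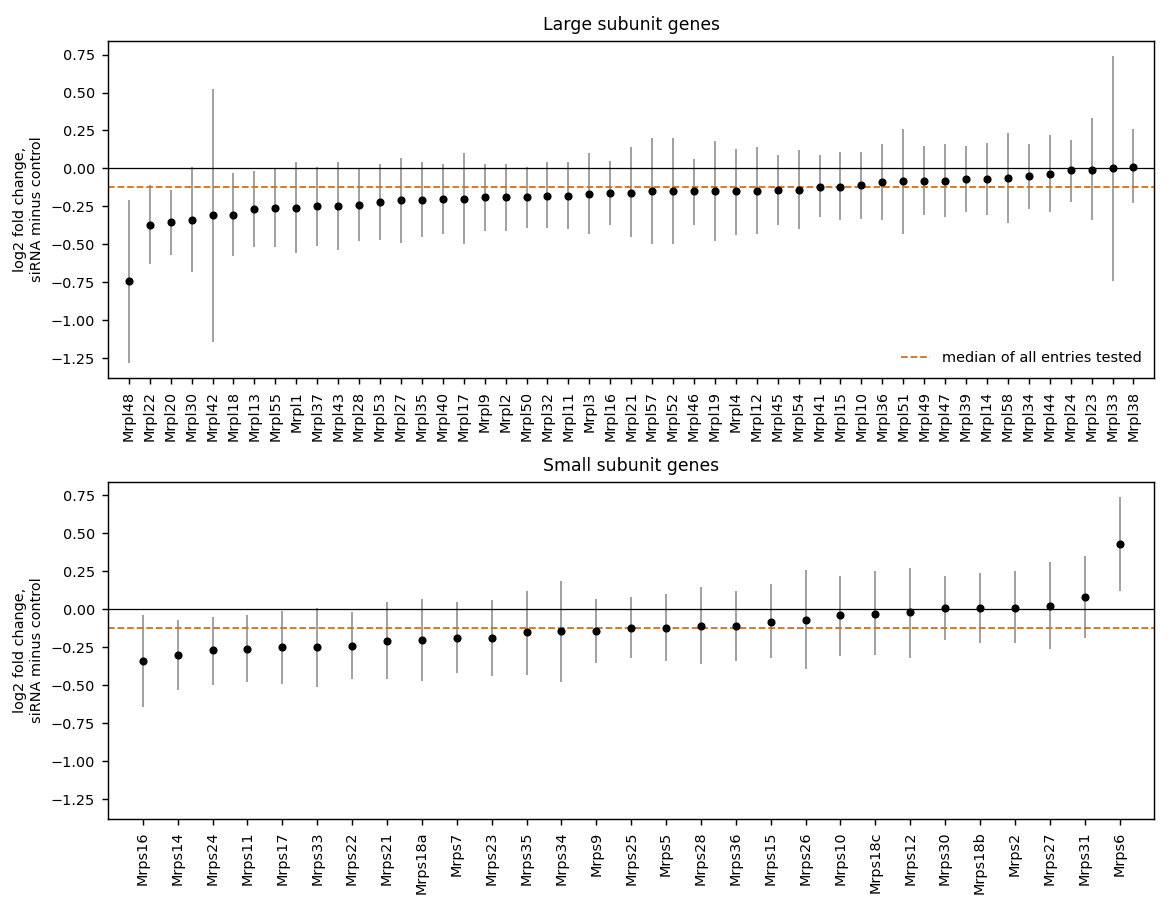
Log2 fold change of each member (black point) with its 95% limma confidence interval (grey line), sorted within the large subunit (upper panel) and the small subunit (lower panel); the dashed line is the median of all entries tested, -0.12. Most points lie below 0 and near the dashed line, and Mrps6 at 0.43 and Mrpl48 at -0.74 are the ends of the range.

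Counted by library, 25 of 78 members (32.1%) had every siRNA library below every control library, against 22.1% of all entries tested and 25.7% of those whose mean reached 5 FPKM. These were 16 of 49 large subunit genes (32.7%) and 9 of 29 small subunit genes (31.0%). In the opposite direction there was 1 member, Mrps6, against 2.65% of all entries and 1.89% of those reaching 5 FPKM. The count of 25 rested on how libraries were scaled. With median-of-ratios scaling, which sets the libraries to a common typical gene, it was 7 of 78 (against 11.4% of all entries) with 1 entirely higher (against 8.93%), and without control library 2 it was 51 (65.4%, against 36.4% of all entries).

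The scale itself differed between the groups. A set of 9 entries at loci that hold or resemble ribosomal RNA, Lars2 among them, made up 0.321% to 0.58% of a control library's FPKM, but 11.5%, 3.24% and 19.9% of the total for siRNA libraries 1, 2 and 3. FPKM is relative to all mapped fragments, these included. With these 9 entries removed and the libraries rescaled, the medians were 0.03 for the large subunit, 0.07 for the small subunit and 0.06 for all entries. No member then lay entirely lower and 4 lay entirely higher, against 4.29% and 14.0% of all entries. Members below 0 numbered 70 of 78 as deposited, 50 with median-of-ratios scaling, 43 with quantile normalization and 25 with the 9 entries removed. Relative to the median of all entries, the members kept about the same place in these 4 cases, with 48, 47, 44 and 45 of 78 below it.

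**Figure D3:**
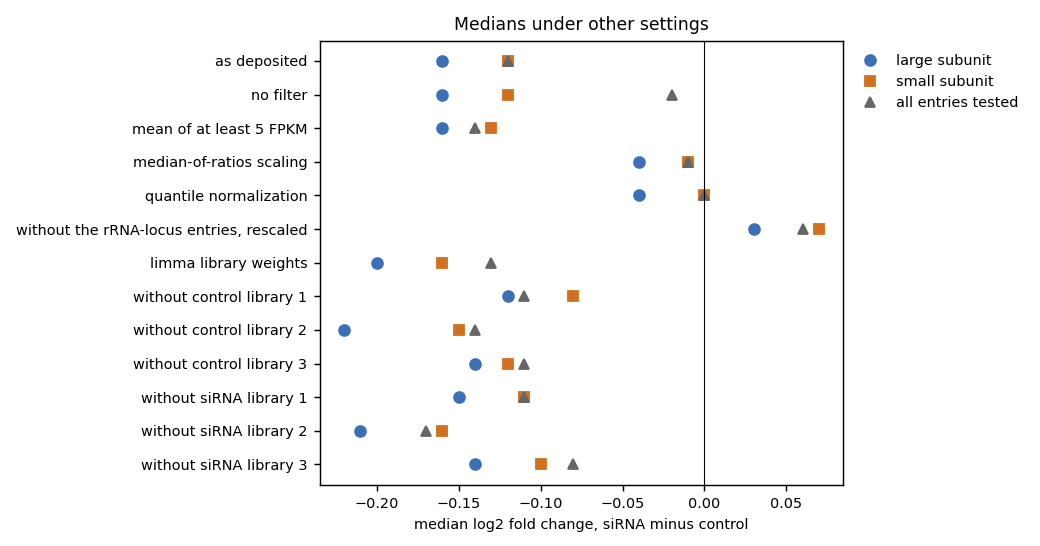
Median log2 fold change (horizontal axis, siRNA minus control) of large subunit genes (blue circles), small subunit genes (orange squares) and all entries tested (grey triangles) under each way of processing (vertical axis). The 3 medians shift together from about -0.16 and -0.12 as deposited to 0.03, 0.07 and 0.06 without the rRNA-locus entries, while the large subunit lies to the left of the small one in each of the settings drawn.

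The members' highest and lowest values gathered in a few libraries. Control library 1 held the highest value of 33 members and control library 3 that of 30, while siRNA library 3 held the lowest value of 41 and siRNA library 1 that of 21 and control library 2 that of 10. siRNA libraries 3 and 1 also had the most and the next most rRNA-locus signal. All entries tested were lowest in the same libraries. Their median deviation from the control mean was -0.20 in siRNA library 3, -0.13 in siRNA library 1 and -0.02 in siRNA library 2. Control library 2 was below the other controls, with a median deviation of the members of -0.10 on the log2 scale. siRNA library 2, with the least rRNA-locus signal of its group, stood at -0.07.

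Summed over genes, large subunit FPKM was 1177 ± 91.5 in control and 1031 ± 64.6 with the siRNA (SD, n = 3 libraries each), and small subunit FPKM was 598 ± 32.1 and 567 ± 26.0. All 78 members together took 0.379% ± 0.0358 of FPKM in control and 0.348% ± 0.0205 with the siRNA. The ratio of the large to the small sum, which a common factor for a library leaves as it is, was 2.01, 1.91 and 1.98 in control and 1.79, 1.86 and 1.81 with the siRNA. The groups did not overlap (1.97 ± 0.0513 against 1.82 ± 0.0361). Without Mrps6, left out after its value was seen, the ratios were 2.25, 2.12 and 2.23 against 2.06, 2.20 and 2.19, and the groups overlapped. Without the 3 most abundant genes of each subunit, Mrps6 among them, they were 2.42, 2.41 and 2.37 against 2.31, 2.34 and 2.34, without overlap. Grouped by where the proteins sit they were 2.39, 2.23 and 2.31 against 2.09, 2.16 and 2.11, also without overlap. That grouping still counts Mrps6 in the small sum. Mrps6 made up 10.7% ± 0.816 of small subunit FPKM in control and 15.3% ± 2.02 with the siRNA.

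**Figure D4:**
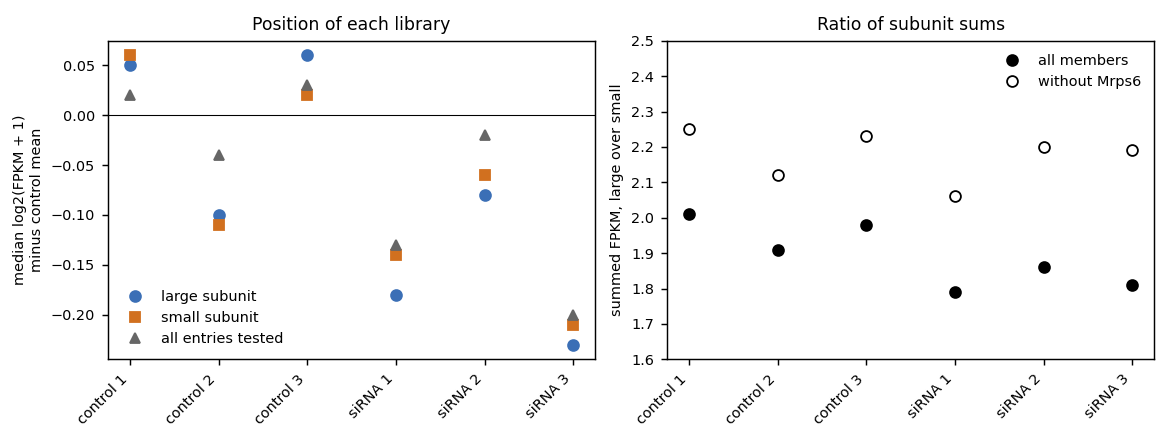
Left, median over genes of log2(FPKM + 1) minus the control mean in each library, for large subunit genes (blue circles), small subunit genes (orange squares) and all entries tested (grey triangles); right, ratio of summed large to summed small subunit FPKM in each library with all members (filled) and without Mrps6 (open), on an axis that starts at 1.6. The members follow all entries from library to library, and the gap between groups in the ratio, 1.97 against 1.82 on average, is 2.20 against 2.15 without Mrps6.

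The factor-binding stalk recruits the translation factors to the large subunit, and its 5 genes (Mrpl10, Mrpl11, Mrpl12, Mrpl53 and Mrpl54) ranged narrowly from -0.22 to -0.11 in log2 fold change. Mrpl12, the stalk protein that contacts the factors directly, was the most abundant large subunit transcript, at 68.1, 56.1 and 72.0 FPKM in control and 56.0, 65.3 and 55.2 FPKM with the siRNA. These groups overlapped (-0.15, SE 0.12, limma adjusted p = 0.54). Mrpl1, which forms the stalk at the other side where spent tRNA leaves, was among the least abundant, at 4.39, 4.52 and 5.38 FPKM against 3.22, 4.57 and 3.74 FPKM. Its groups overlapped too, through siRNA library 2 (-0.26, SE 0.13, limma adjusted p = 0.342).

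The central protuberance is the crown of the large subunit that faces the small one, and 6 of its 7 genes lay below the median of all entries, with a median of -0.20. Mrpl48, a protein found only in mitochondrial ribosomes, had the lowest log2 fold change of all members. It read 15.7, 8.30 and 10.4 FPKM in control and 5.55, 8.52 and 5.00 FPKM with the siRNA, so that siRNA library 2 lay just above control library 2 and the groups overlapped. The mean was 1.80-fold higher in control (11.4 ± 3.80 against 6.36 ± 1.90 FPKM, SD, n = 3), with a log2 fold change of -0.74 (SE 0.24, limma adjusted p = 0.203). It was below 0 under each of the 18 processing settings, from -0.95 to -0.51.

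The entry next to it in name, the pseudogene Mrpl48-ps, read more than its parent, at 22.3, 21.1 and 25.4 FPKM in control and 17.5, 21.0 and 20.3 FPKM with the siRNA. Reads of near-identical copies may be divided between such entries, so values of either are uncertain. The sum of the pair was 37.9, 29.4 and 35.7 FPKM against 23.1, 29.6 and 25.3 FPKM, which overlapped. Exons of Mrpl48 are also covered over 708 nt by Rab6a, a gene of Golgi transport on the opposite strand, in GENCODE M21, and whether counting used strand is not stated in the labels used. Rab6a read 99.0, 65.9 and 66.2 FPKM in control and 81.7, 94.9 and 86.2 FPKM with the siRNA (0.21, SE 0.16, limma adjusted p = 0.51).

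Other genes of the protuberance moved less. Mrpl18, whose bacterial counterpart binds the small RNA of the large subunit, stood at 39.3, 34.1 and 43.7 FPKM in control and at 32.6, 33.2 and 28.1 FPKM with the siRNA, without overlap (-0.31, limma adjusted p = 0.254). Mrpl38 had the highest log2 fold change of the large subunit, 0.01 (SE 0.11), with 27.2, 23.7 and 23.9 FPKM against 22.4, 25.8 and 27.4 FPKM. For Mrpl38 the 95% interval of the log2 difference ran from -0.23 to 0.26.

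At the exit of the nascent chain, 8 genes had a median of -0.08, and 3 of the 8 lay below the median of all entries. Mrpl22, which lines the tunnel, was the lowest of them and the lowest of the large subunit after Mrpl48. It read 32.1, 29.7 and 31.3 FPKM in control and 26.2, 25.1 and 20.3 FPKM with the siRNA. All its siRNA libraries were below all its controls, by 1.30-fold on average (-0.37, SE 0.11, limma adjusted p = 0.198). Mrpl23 and Mrpl24, its neighbours around the exit, both stood at -0.01. Mrpl23 read 9.90, 11.6 and 12.1 FPKM against 12.5, 12.4 and 8.80 FPKM, while its pseudogene entry Mrpl23-ps1 averaged 27.7 FPKM over all libraries against 11.2 FPKM for the gene.

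In the body of the large subunit, Mrpl20, a conserved protein that in bacteria is needed for assembly, had the lowest adjusted p of all members. It read 52.8, 49.2 and 50.4 FPKM in control and 38.1, 42.6 and 38.0 FPKM with the siRNA, with no overlap and little spread. The mean was 1.28-fold higher in control (50.8 ± 1.80 against 39.6 ± 2.64 FPKM, SD, n = 3), with a log2 fold change of -0.35 (SE 0.09, limma adjusted p = 0.173) that ran from -0.41 to -0.15 over the settings. Mrpl28, another protein with a bacterial counterpart, read 50.1, 47.2 and 42.9 FPKM against 40.7, 41.8 and 35.9 FPKM, again without overlap (-0.24, limma adjusted p = 0.289). Mrpl30, a conserved protein of the same body, read 32.8, 28.3 and 31.3 FPKM against 28.4, 26.1 and 18.9 FPKM, and its groups met between control library 2 and siRNA library 1 (-0.34, limma adjusted p = 0.295).

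The remaining large subunit genes of the range had no steady level. Mrpl42, found only in mitochondrial ribosomes, read 77.9, 35.1 and 66.9 FPKM in control and 26.8, 65.6 and 54.0 FPKM with the siRNA. Its log2 fold change of -0.31 had a standard error of 0.36 and ran from -0.86 to 0.07 over the settings. Mrpl33, a small protein with a bacterial counterpart, was the least abundant member, at 3.34, 1.19 and 5.04 FPKM against 3.00, 3.51 and 2.20 FPKM. In Mrpl33 the highest and the lowest library were both controls, and its log2 fold change was 0.00 (SE 0.33).

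**Figure D5:**
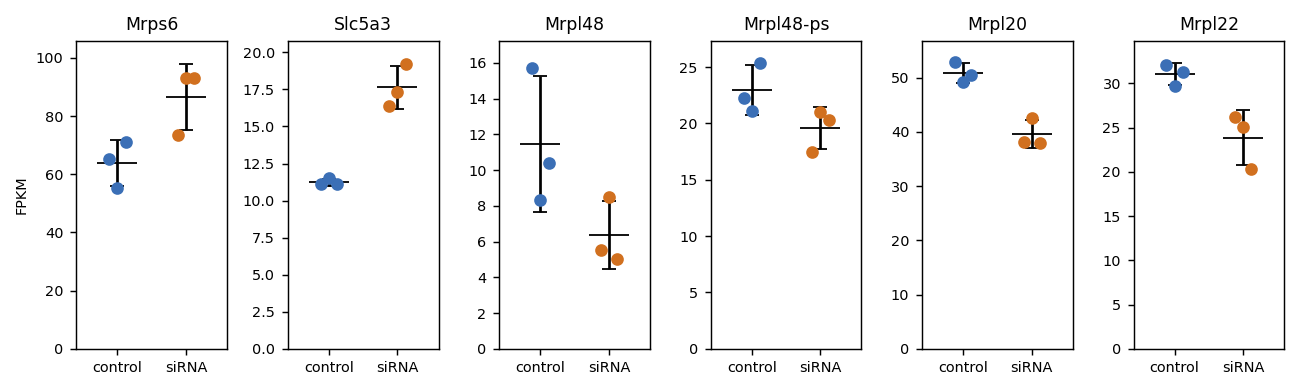
FPKM (vertical axis, each panel with its own scale from 0) of Mrps6, Slc5a3, Mrpl48, Mrpl48-ps, Mrpl20 and Mrpl22 in the 3 control (blue) and 3 circHIPK2 siRNA (orange) libraries; the long bar is the mean and the error bar the SD. Mrps6 and Slc5a3 are higher in every siRNA library, Mrpl20, Mrpl22 and Mrpl48-ps lower in every one, and Mrpl48 overlaps through siRNA library 2.

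In the small subunit, Mrps6, a protein of the platform where messenger RNA leaves, was the most abundant member of all and the one with the highest fold change. It read 65.4, 55.4 and 71.0 FPKM in control and 73.4, 93.0 and 93.0 FPKM with the siRNA, so the lowest siRNA library lay just above the highest control. The mean was 1.35-fold higher with the siRNA (86.5 ± 11.3 against 63.9 ± 7.93 FPKM, SD, n = 3). The log2 fold change was 0.43 (SE 0.14), it missed the threshold (limma adjusted p = 0.203), and it was above 0 under all 18 settings, from 0.27 to 0.63.

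Mrps6 shares 159 nt of exon on the same strand with Slc5a3, the sodium-dependent myo-inositol transporter, in GENCODE M21. Slc5a3 was looked at after the values of Mrps6 were seen. It read 11.1, 11.5 and 11.1 FPKM in control and 16.4, 17.3 and 19.2 FPKM with the siRNA. Its groups were far apart (1.57-fold, log2 fold change 0.60, SE 0.09), and its limma adjusted p was 0.0592, with a range of 0.0246 (with library weights) to 0.224 over 18 settings. Fragments from the shared exon cannot be assigned to either gene from the table, and its part in the value of Mrps6 was not tested.

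The other abundant small subunit genes lay on the other side of 0. Mrps21, a conserved protein of the platform, read 67.9, 78.1 and 65.3 FPKM in control and 64.8, 62.4 and 55.1 FPKM with the siRNA, narrowly without overlap (-0.21, limma adjusted p = 0.356). Mrps15, which in bacteria organises the RNA of the platform early in assembly, read 40.1, 34.8 and 40.2 FPKM against 38.1, 38.2 and 32.7 FPKM, with overlap (-0.08, limma adjusted p = 0.711).

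The lowest fold changes of the small subunit were those of Mrps16, Mrps14, Mrps24 and Mrps11, all with bacterial counterparts. Mrps16 read 13.0, 9.71 and 11.4 FPKM against 9.78, 7.67 and 8.87 FPKM, and siRNA library 1 reached above control library 2 (-0.34, limma adjusted p = 0.252). Mrps14, a protein of the head, read 6.12, 7.01 and 7.20 FPKM against 5.66, 5.27 and 5.01 FPKM (-0.30, limma adjusted p = 0.218). Mrps24, which lies at the entry of the messenger RNA channel, read 13.3, 12.0 and 12.2 FPKM against 10.6, 10.8 and 9.25 FPKM (-0.27, limma adjusted p = 0.236). In Mrps14 and Mrps24 each siRNA library was below each control, by 1.28-fold and 1.23-fold on average.

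Mrps11, a platform protein, forms a pair with a large subunit gene. It is annotated head to head with Mrpl46, a protein of the central protuberance, with starts 412 nt apart and 173 nt of exon shared on opposite strands. Mrps11 read 21.3, 20.9 and 22.3 FPKM in control and 16.7, 17.2 and 19.6 FPKM with the siRNA (-0.26, limma adjusted p = 0.238). Mrpl46 read 21.2, 17.9 and 20.0 FPKM against 17.4, 17.7 and 17.7 FPKM (-0.15, limma adjusted p = 0.411). Both were lower in every siRNA library, Mrpl46 by a narrow margin at control library 2.

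Other small subunit genes stood near 0. Mrps31, found only in mitochondrial ribosomes, read 14.2, 12.7 and 16.5 FPKM in control and 14.3, 16.7 and 15.0 FPKM with the siRNA (0.08, 95% interval from -0.19 to 0.35). Mrps27, a pentatricopeptide repeat protein, read 13.8, 13.6 and 17.6 FPKM against 16.3, 15.8 and 13.5 FPKM (0.02, 95% interval from -0.26 to 0.31). Mrps10, a head protein and among the least abundant small subunit genes, read 7.10, 5.62 and 5.69 FPKM against 5.58, 6.48 and 5.64 FPKM (-0.04, 95% interval from -0.31 to 0.22). In all 3 the groups overlapped.

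Names and places differ for a few members. The Mrps18 genes are 3 paralogues of a bacterial small subunit protein, of which the products of Mrps18b and Mrps18c sit in the small subunit and that of Mrps18a in the large one. Mrps18a was the most abundant of them, at 52.3, 40.0 and 46.4 FPKM in control and 40.9, 41.5 and 37.3 FPKM with the siRNA (-0.20, SE 0.12). Mrps18b read 12.0, 10.1 and 10.8 FPKM against 10.6, 11.9 and 10.6 FPKM (0.01, SE 0.10), and Mrps18c 13.4, 11.1 and 13.9 FPKM against 13.5, 10.9 and 13.3 FPKM (-0.03, SE 0.12). All 3 overlapped between groups, and no difference among them was tested.

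Mrps30 also sits in the large subunit, and Mrps36 has since been assigned to a dehydrogenase complex rather than to the ribosome. Mrps30 varied little, at 5.02, 4.71 and 4.97 FPKM against 5.03, 4.80 and 5.04 FPKM (0.01, 95% interval from -0.20 to 0.22). Mrps36 read 16.8, 14.4 and 16.6 FPKM against 13.9, 15.7 and 14.4 FPKM (-0.11, SE 0.10), below its pseudogene entries Mrps36-ps1 (mean 27.7 FPKM) and Mrps36-ps2 (25.1 FPKM), while Mrps36-ps3 was listed at 0 in every library. Grouped by where the proteins sit, the medians were -0.16 for 51 large subunit genes and -0.13 for 26 small subunit genes.

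By annotation, members were often paired with other genes. In GENCODE M21, 26 of 78 (33.3%) had a protein-coding neighbour starting in the opposite direction within 1000 nt, against 15.2% of 11217 other tested protein-coding genes. Members with and without such a neighbour had the same median log2 fold change, -0.15. Another gene's exon overlapped an exon of 33 members, on the same strand for 8 and on the opposite strand for 28. The 33 had a median of -0.12 and the other 45 one of -0.18. On the deposited scale 7 (21.2%) and 18 (40.0%) were entirely lower, against 22.1% of all entries tested.

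The other genes of mitochondrial translation were described by lists. Of 5 ribosomal proteins with other names (Dap3, Ptcd3, Chchd1, Aurkaip1 and Gadd45gip1), none was called, and the median was -0.03. Chchd1, the most abundant, read 33.8, 38.1 and 39.4 FPKM against 33.1, 34.4 and 34.5 FPKM. Dap3, a GTP-binding protein of the small subunit, had the highest log2 fold change at 0.04, with 9.74, 12.6 and 11.6 FPKM against 10.8, 11.9 and 12.0 FPKM. Ptcd3, a pentatricopeptide repeat protein, had the lowest at -0.13, with 13.9, 11.8 and 13.8 FPKM against 12.1, 11.7 and 11.9 FPKM. All 5 overlapped between groups.

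Assembly factors process and modify the ribosomal RNA and place the proteins. None of the 26 tested of 27 was called, with a median of -0.11. The lowest was Lonp1, the matrix protease, at 28.6, 26.9 and 27.0 FPKM against 24.4, 23.9 and 17.7 FPKM (-0.32, limma adjusted p = 0.26). The most abundant was Clpp, the other main matrix protease, at 47.4, 47.8 and 48.2 FPKM against 42.4, 40.2 and 37.9 FPKM (-0.25, limma adjusted p = 0.235). In both, each siRNA library was below each control. Mettl17, an assembly factor of the small subunit, had the highest log2 fold change at 0.09, with 5.67, 5.24 and 5.71 FPKM against 6.27, 6.02 and 5.65 FPKM.

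Among 12 translation factors the median was -0.17 and none was called. Guf1, a ribosome-binding GTPase related to elongation factors, read 8.96, 7.84 and 9.80 FPKM in control and 5.98, 7.04 and 6.15 FPKM with the siRNA, without overlap (-0.41, limma adjusted p = 0.178). Tufm, the elongation factor that delivers tRNA, was the most abundant at 42.8, 39.1 and 40.4 FPKM against 37.4, 38.3 and 30.8 FPKM (-0.20). Gfm2, a recycling factor, was the highest at 0.10 (SE 0.25), at 9.51, 4.08 and 8.85 FPKM against 7.16, 8.31 and 7.58 FPKM, where control library 2 stood alone.

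Of 20 genes that charge mitochondrial tRNA, 1 was called higher, Lars2, and it is among the 9 rRNA-locus entries, at 23.4, 18.4 and 16.1 FPKM against 483, 149 and 758 FPKM. Among the siRNA libraries its order was that of the rRNA-locus share, of which it is itself a part. The median of the 20 was -0.08.

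A further list held mainly genes of mitochondrial transcription and messenger RNA handling. It also included genes of mitochondrial DNA replication (such as Polg and Twnk) and of the inner membrane (Oxa1l and Letm1). None of its 22 tested genes was called (median -0.13). The lowest and most abundant was Oxa1l, which inserts new chains into the inner membrane, at 47.9, 46.1 and 47.8 FPKM against 35.8, 41.5 and 33.5 FPKM (-0.35, limma adjusted p = 0.191). Fastkd1, an RNA-binding protein of the FASTK family, had the highest at -0.05, with 5.21, 4.64 and 5.23 FPKM against 4.85, 5.41 and 4.24 FPKM. Of 8 tested regulators of nuclear genes for mitochondrial proteins, none was called (median -0.17). Nrf1, whose core motif was searched above, was the lowest at 12.4, 11.8 and 14.5 FPKM against 8.83, 11.2 and 9.36 FPKM (-0.36, SE 0.12, limma adjusted p = 0.212), while Myc, the most abundant, read 76.1, 59.0 and 72.1 FPKM against 58.3, 71.2 and 59.6 FPKM (-0.13). Esrra, a nuclear receptor that acts with the coactivator encoded by Ppargc1a, had the highest at -0.03, with 17.3, 15.3 and 17.7 FPKM against 17.0, 16.6 and 15.5 FPKM.

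The ribosomal RNAs that the proteins assemble with are transcribed inside the mitochondrion. mt-Rnr2, that of the large subunit, read 240, 260 and 210 FPKM in control and 244, 260 and 397 FPKM with the siRNA (0.31, limma adjusted p = 0.404). mt-Rnr1, that of the small subunit, read 143, 157 and 126 FPKM against 127, 144 and 198 FPKM (0.12, limma adjusted p = 0.711). In both the groups overlapped and siRNA library 3, which also had the highest rRNA-locus share, was the highest. Libraries were selected for poly(A), so these values are those of a selected fraction.

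The cytosolic ribosomal protein genes, the most alike of the other groups, stood lower than the mitochondrial ones. Of 80 tested, 64 lay below the median of all entries and the median was -0.27. On the deposited scale 31 (38.8%) were entirely lower, against 22.1% of all entries tested. A single gene of the 80 was called, in the higher direction (highest log2 fold change of the set 0.84). For the members the corresponding values were 48 of 78, -0.15 and 32.1%. The difference between the groups of genes was not tested.

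Markers of neural stem cells were present, with 10 of 10 at a mean of at least 1 FPKM and summed levels of 1801 to 2221 FPKM in control and 1474 to 1794 FPKM with the siRNA. Their means went both ways, Fabp7 from 1206 to 755 FPKM and Vim from 507 to 626 FPKM. Some markers of cells that stem cells give rise to also reached a mean of 1 FPKM. Those of neurons (4 of 6) summed to 117 to 127 FPKM in control and 94.0 to 105 FPKM with the siRNA. Map2 held most of that sum (mean 99.2 FPKM), with Syn1 at 6.48, Snap25 at 3.05, Dcx at 1.04, Rbfox3 at 0.226 and Stmn2 at 0.0378 FPKM. Those of astrocytes (5 of 5) summed to 178 to 315 FPKM in control and 164 to 392 FPKM with the siRNA. Those of the oligodendrocyte lineage (5 of 6) summed to 720 to 786 FPKM and 578 to 721 FPKM. Olig1 and Olig2 held most of that sum (means 425 and 223 FPKM), with Mbp at 27.0, Pdgfra at 12.1, Sox10 at 8.04 and Mog at 0.119 FPKM. Of 7 markers of microglia and macrophages 1 reached a mean of 1 FPKM (Cd68), with Cx3cr1, C1qb and Ptprc at 0 in every library. None of those of endothelium (4), fibroblasts and mural cells (5) or red blood cells (4) did. Liver genes (7) summed to 33.1 to 54.2 FPKM in control and 1.95 to 2.21 FPKM with the siRNA. All 7 were called lower (limma adjusted p from 4.68e-06 for Alb to 0.0135 for Apoa1 and Apoa2), among 19 lower calls over all entries. The part of any of these markers in the members' values was not tested. Depth, read from the steps between low FPKM values, was 18410000 to 21890000 fragments a library. Only 39.1% to 42.7% of those values lay within 0.05 of a whole step, so it is approximate. For a depth fixed beforehand 10% would do so by chance. The depth was instead picked for the highest share, so 10% is not the chance level of that share.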

How the data were processed

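RNA was poly(A)-selected and made into dUTP strand-marked libraries, per the labels' protocols. The values are FPKM as deposited by the authors, who used HISAT, StringTie, edgeR and the mm9 build per the submitters' processing notes. Not given in the sources used here: versions, annotation, strand setting and the use of molecular identifiers. Raw counts were not used here, so precision is read from the spread between 3 libraries per group.

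FPKM were taken to log2 with a pseudocount of 1, which understates changes of low genes. Entries whose mean reached 1 FPKM were fitted with limma 3.58.1 in R 4.3.3 (trend, two-sided, Benjamini-Hochberg over all entries tested), after a test on simulated data. Exact permutation of 3 against 3 libraries cannot go below p = 0.1. Intervals are 95%.

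Members, lists and the rRNA-locus entries were chosen with earlier results of these data known. Per-library values are given for the 4 most and 2 least abundant members of each subunit, the 4 lowest and 3 highest fold changes, the Mrps18 genes, Mrps30 and Mrps36, and in each list the most abundant, lowest, highest and called genes, except 1 gene that is not reported here. Mrpl18, Mrpl46, Slc5a3, Rab6a and the pseudogene entries were added after their values were seen. Exon overlaps and neighbours are from GENCODE M21, promoter windows from RefSeq, both matched by symbol. Alternatives were other pseudocounts (0.1 and 0.5), filters, scalings and limma options, a replicate block, and leaving out each library.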

Additional observations from a re-analysis of the deposited data

How the results depend on the processing

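No member was called under any setting tried but 1, limma library weights, where 1 (Mrpl20) was called lower, and that fit also called 1 translation factor, 55 entries higher and 265 lower. Leaving out 1 library at a time, 2 to 15 entries were called higher and 6 to 23 lower, against 16 and 19 with all libraries. Higher calls over all entries were 7 with no filter, 9 with median-of-ratios scaling, 4 with quantile normalization and 8 with the robust option. Lower calls were 8 at a mean of at least 5 FPKM and 12 with quantile normalization.

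The large and small subunit medians were -0.04 and -0.01 with median-of-ratios scaling, -0.04 and 0.00 with quantile normalization, and 0.03 and 0.07 without the rRNA-locus entries. The median of all entries was -0.02 with no filter, -0.01, 0.00 and 0.06 in those 3 scalings. Without siRNA library 3 and with median-of-ratios scaling, chosen after seeing the data, the medians were -0.07, -0.03 and -0.01 for large, small and all; 15 members were then entirely lower and 4 entirely higher (against 16.1% and 12.9% of all entries), with 2 and 5 entries called higher and lower. The difference of medians ran from -0.07 to -0.02 with 1 library left out.

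Members entirely lower numbered 7 with median-of-ratios scaling, 0 without the rRNA-locus entries (4 entirely higher), and 25 to 51 with 1 library left out (1 to 2 entirely higher). The share of all entries was then 24.1% to 42.4% entirely lower and 3.42% to 6.27% entirely higher, with 36.4% lower where 51 members were (without control library 2). Members lower at an unadjusted limma p below 0.05 numbered 11 with all libraries (15.5% of all entries), 18 with no filter (8.76%), 3 with median-of-ratios scaling (7.82%), 1 without the rRNA-locus entries (2.86%), 32 with library weights (25.4%), 6 with the replicate block (13.5%) and 4 to 18 with 1 library left out (8.80% to 21.6%). The ratio of subunit sums was 2.40 in control and 2.33 with the siRNA without the 3 most abundant members of each subunit. Grouped by structure, with Mrps6 still in the small sum, it was 2.31 and 2.12.

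The median of the 2 mitochondrial ribosomal RNAs relative to all entries, 0.34 with all libraries, was 0.10 without siRNA library 3 and 0.57 without siRNA library 2. With no filter the median of all entries was itself -0.02, against -0.12 with the filter. The medians of the other lists relative to all entries also moved. With no filter they were -0.01 for proteins with other names, -0.08 for assembly factors, -0.16 for translation factors (-0.05 with the filter), -0.06 for aminoacyl-tRNA synthetases and -0.11 for transcription and mRNA handling. At a mean of at least 5 FPKM they were 0.04 for assembly factors, 0.01 for synthetases and 0.01 for regulators. With quantile normalization they were -0.01 for assembly factors and 0.02 for synthetases, and without the rRNA-locus entries 0.03 for synthetases. With library weights translation factors stood at 0.00. Without siRNA library 3 and with median-of-ratios scaling they were 0.06 for synthetases and 0.01 for regulators. With 1 library left out the ranges were -0.01 to 0.08 for synthetases, -0.04 to 0.04 for transcription and mRNA handling, -0.01 to 0.04 for assembly factors and -0.10 to 0.02 for regulators. Calls of the single called synthetase, Lars2, were 0 with no filter, median-of-ratios scaling, quantile normalization and the robust option. They were also 0 without siRNA library 3 with median-of-ratios scaling, and 0 to 1 with 1 library left out. Without the rRNA-locus entries Lars2 could not be called, because it is among the entries removed. The causes were not tested.

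Whether the replicate numbers pair the libraries is not known. Correlations of deviations between same-numbered libraries were 0.046, 0.0152 and 0.133, and those between different-numbered libraries ran from -0.166 to 0.117. With 3 libraries per group, these values cannot show whether the libraries are paired. With the replicate block, 23 entries were called higher, 23 lower and 0 members, the lowest member adjusted p was 0.197 (limma, Mrpl48), and the subunit medians were -0.16 and -0.12. With 3 libraries per group and a median standard error of 0.11, small differences of single members were not detectable.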
